A study of Mus musculus with 24 samples.

Results

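The genes described here were 38 Hox genes of the 4 mouse clusters HoxA, HoxB, HoxC and HoxD, out of 21909 gene symbols listed in the RNAseq tables. They were chosen by symbol, the letter of a cluster followed by a paralog number, and not by any measured value. The choice was made with earlier results of these data known. HoxA and HoxB each gave 10 genes and HoxC and HoxD 9 each. RNA was sequenced from E14 mouse embryonic stem cells (ESCs) grown without feeders in a medium with LIF and the kinase inhibitors of the 2i condition, and from neural progenitor cells (NPCs) derived from them. The NPCs were made over 8 days as embryoid bodies in suspension, in a medium with fetal calf serum and, during the last 4 days, 2 µM retinoic acid, a procedure that can leave cells of other types in the culture. There were 3 RNAseq samples per cell type, with no further treatment. The same cell types were profiled by Nucleolar-DamID, in which histone H2B fused to the bacterial methylase Dam and carrying a nucleolar localization signal (H2B-Dam-NoLS) marks DNA close to the nucleolus, with H2B-Dam lacking the signal as the control. Both fusions were expressed from 1 allele of the Rosa26 locus after 15 h of induction (doxycycline at 100 ng/ml, Shield1 at 1 µM), in 2 experiments per cell type, and the resulting regions are called nucleolus-associated domains (NADs). The question addressed was which Hox genes were transcribed in each cell type and where the clusters lie relative to the NADs.

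Hox genes encode homeodomain transcription factors that give cells of the embryo their position along the axis from head to tail. Genes of a cluster are switched on in an order that follows their order on the chromosome, from the low paralog numbers at the 3′ end, used in the hindbrain, to the high numbers at the 5′ end, used in the tail, the limbs and the urogenital system. In pluripotent cells the clusters are known to be covered by Polycomb proteins, and retinoic acid is a classical inducer of the genes at the 3′ end.

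Levels are given in RPKM, the reads of a gene relative to its length and to the size of the library, as calculated by the authors. The steps between low values were those of whole reads when the full span of a gene, introns included, was taken as its length, for 122 to 154 genes per sample that shared 1 step, against 3 to 7 genes with exon length. This scale was inferred from the values and differs from the methods of the authors, who describe coverage of exons. With the annotated spans, 53.0% of 6185 low genes came out as whole reads in all 6 samples, to within 0.05 reads, and the steps corresponded to between 27.3 × 10⁶ reads in NPC replicate 2 and 34.05 × 10⁶ reads in ESC replicate 1. ESC replicate 3 stood apart from its group. Over the tested genes its log2(RPKM + 1) values correlated with those of ESC replicates 1 and 2 with r of 0.963 and 0.966, against 0.9985 between replicates 1 and 2, and its RPKM values summed to 139863 against 103930 and 105766. Kmt2d, for example, had 7.51, 7.8 and 1.85 RPKM in ESC replicates 1 to 3. Results are therefore also given without ESC replicate 3. The samples of a cell type came from independent culture dishes, so that p-values measure the spread between dishes, and any difference in handling between the ESC and the NPC samples cannot be told apart from the cell type.

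In NPCs 21 of the 38 Hox genes reached a mean of 1 RPKM, and in ESCs 3 did, namely Hoxb9, Hoxc12 and Hoxc13. The RPKM values of all 38 genes summed to 7.17, 7.44 and 6.25 in the ESC samples and to 320.1, 311.8 and 313.6 in the NPC samples. The change from ESCs to NPCs was tested with limma on log2(RPKM + 1) over 7831 genes with at least 1 RPKM in at least 3 of the 6 samples, and a gene was called with an adjusted p under 0.05 and a change of at least 1 on that scale. Of the 38 members 21 passed this filter, 20 of them called higher and 1 called lower in NPCs, where 28.7% of all tested genes were called, 16.6% higher and 12.1% lower. Because 19 of the 21 passed only through NPC samples and 1 only through ESC samples, these members had to differ, and Hoxb9 alone had at least 1 RPKM in samples of both cell types. Without the filter, 37 members could be tested, 20 called higher and 2 lower, against 12.4% of 18360 genes called, 7.16% higher and 5.27% lower. Every NPC sample lay above every ESC sample for 26 of the 38 members, as for 45.5% of all genes with a value above 0, and below every ESC sample for 8, as for 27.4% of all genes. In such bulk samples fewer cells that transcribe a gene and less RNA per cell cannot be told apart. Without ESC replicate 3 the same 21 members were called, and the change of no tested member moved by more than 0.069, the value for Hoxb13. With size factors taken as the median of ratios between samples, the median change of all tested genes moved from 0.025 to 0.195, and 69.1% of the called genes were higher in NPCs in place of 57.9%. Of the members, that scaling added Hoxc6 to those called higher, and quantile normalization removed Hoxd4.

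**Figure D1:**
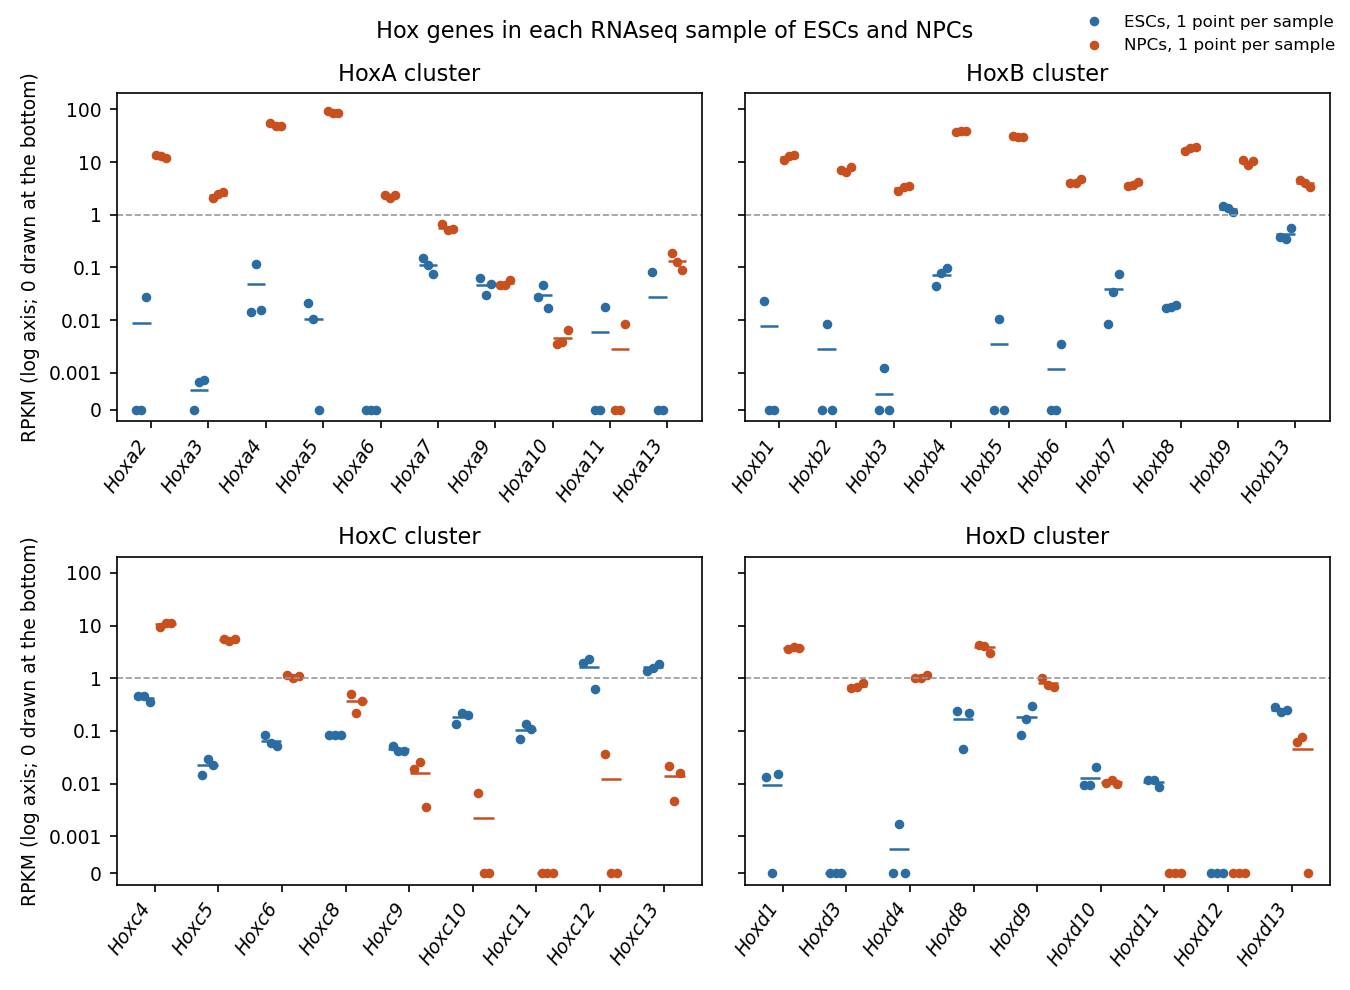
RPKM of each Hox gene (y axis, log scale, with 0 drawn at the bottom) in 3 ESC samples (blue) and 3 NPC samples (orange), by cluster and in the order of the paralog numbers (x axis). Points are samples, short lines are group means and the dashed line is 1 RPKM; in HoxC the NPC points lie above the ESC points from Hoxc4 to Hoxc8 and below them from Hoxc9 to Hoxc13.

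Paralog groups 1 to 3 pattern the hindbrain and the pharyngeal arches, and 7 members belonged to them. Hoxb1, which gives the hindbrain segment of the facial nerve its identity, had 0.0235, 0 and 0 RPKM in ESC replicates 1 to 3 and 10.8, 13.1 and 13.7 RPKM in NPC replicates 1 to 3. Hoxa2, the selector gene of the hyoid arch, had 0, 0 and 0.0269 RPKM in the ESC samples and 13.4, 12.9 and 11.7 RPKM in the NPC samples. For both genes ESC samples were at or near 0 and all NPC samples were above 10 RPKM, so that the groups did not overlap. The log2(RPKM + 1) value rose by 3.74 ± 0.099 (SE) for Hoxb1 and by 3.76 ± 0.076 (SE) for Hoxa2, with limma adjusted p of 2.88e-07 and 1.86e-07. Hoxb2, which acts with Hoxb1 in facial motor neurons, had 0, 0.0085 and 0 RPKM in ESCs and 7.17, 6.52 and 8.11 RPKM in NPCs. Its NPC samples were again all high, and it rose by 3.04 ± 0.083 (SE) (limma, adjusted p = 3.4e-07).

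Hoxd1, which is active in sensory neurons, had 0.0136, 0 and 0.015 RPKM in ESCs and 3.62, 3.9 and 3.78 RPKM in NPCs, without overlap, and rose by 2.24 ± 0.047 (SE) (limma, adjusted p = 1.86e-07). Hoxb3 and Hoxa3, the latter required for the thymus and parathyroid glands, averaged 3.27 ± 0.4 and 2.4 ± 0.31 RPKM in NPCs (SD, n = 3) and did not exceed 0.0012 RPKM in any ESC sample. Both rose, by 2.09 ± 0.074 (SE) and 1.76 ± 0.07 (SE). Hoxd3, a regulator of the uppermost neck vertebrae, was listed at 0 in all ESC samples and at 0.645, 0.686 and 0.806 RPKM in the NPC samples. It stayed under the filter of 1 RPKM and was not called without it either. All 7 members of these groups were thus higher in every NPC sample than in any ESC sample.

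Paralog groups 4 to 8 hold 15 members, which act in the posterior hindbrain, the neck and the upper spinal cord, and they gave the highest levels. Hoxa5, which is needed for the lung and for the motor neurons of the diaphragm, had 0.0207, 0.0105 and 0 RPKM in the ESC samples and 93.1, 85.6 and 83.7 RPKM in the NPC samples. Hoxa4, a neighbour of Hoxa5 with a role in the neck vertebrae, had 0.0141, 0.114 and 0.0156 RPKM in ESCs and 54, 49.1 and 48.3 RPKM in NPCs. The groups were far apart for both, ESC samples at or below 0.114 RPKM and NPC samples above 48 RPKM. Hoxa5 rose by 6.45 ± 0.082 (SE) and Hoxa4 by 5.62 ± 0.088 (SE) on the log2(RPKM + 1) scale, with limma adjusted p of 1.42e-07 and 1.76e-07. Hoxb4, known for the expansion of blood stem cells, had 0.0436, 0.0791 and 0.0964 RPKM in ESCs and 36.4, 38.7 and 39.1 RPKM in NPCs. Hoxb5, which acts in the enteric nervous system, had 0, 0.0106 and 0 RPKM in ESCs and 31, 30.2 and 29.9 RPKM in NPCs. Again no ESC sample came near an NPC sample, and the changes were 5.19 ± 0.075 (SE) for Hoxb4 and 4.97 ± 0.069 (SE) for Hoxb5. Hoxb8, a gene of the spinal cord and of myeloid progenitors, had 0.0172, 0.0174 and 0.0191 RPKM in ESCs and 16.2, 18.2 and 19.3 RPKM in NPCs, and rose by 4.21 ± 0.086 (SE). The ESC samples of Hoxb8 differed little among themselves and stayed far below all NPC samples.

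In HoxC, Hoxc4 and Hoxc5, which act in neurons at neck level, were the members with the highest levels in NPCs. Hoxc4 had 0.451, 0.453 and 0.361 RPKM in ESCs and 9.34, 11.2 and 11.2 RPKM in NPCs, while Hoxc5 had 0.0147, 0.0291 and 0.0227 RPKM in ESCs and 5.43, 5.15 and 5.45 RPKM in NPCs. Hoxc4 was thus measurable in all ESC samples and still lower there than in every NPC sample. The changes were 3.02 ± 0.094 (SE) for Hoxc4 and 2.63 ± 0.052 (SE) for Hoxc5 (limma, adjusted p = 5.45e-07 and 1.86e-07). Hoxc6, a gene of motor neurons at forelimb level, had 0.0841, 0.0587 and 0.0525 RPKM in ESCs and 1.14, 0.991 and 1.08 RPKM in NPCs, and NPC replicate 2, just below 1 RPKM, kept it under the filter. Hoxd4, at 1.02, 1 and 1.13 RPKM in the NPC samples and at most 0.0017 RPKM in ESCs, lay just above the same limit and was called with a rise of 1.03 ± 0.033 (SE), a call lost with quantile normalization and with a filter on the mean of the 6 samples. The RPKM values of Hoxc8, which shapes motor pools at forelimb level, were 0.0838, 0.0846 and 0.0834 in ESCs and 0.492, 0.22 and 0.371 in NPCs. They did not overlap, but Hoxc8 was not tested at this limit.

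Levels of Hoxb6 were 0, 0 and 0.00357 RPKM in ESCs and 3.91, 4.06 and 4.86 RPKM in NPCs, and those of its neighbour Hoxb7 were 0.0083, 0.0335 and 0.0734 and 3.44, 3.67 and 4.23 RPKM. Hoxd8 had 0.239, 0.0447 and 0.215 RPKM in ESCs and 4.31, 4.15 and 3.07 RPKM in NPCs. In all 3 genes the NPC samples were the higher ones, and they rose by 2.39 ± 0.076 (SE), 2.20 ± 0.073 (SE) and 2.05 ± 0.12 (SE) in this order, with limma adjusted p between 6.16e-07 and 1.16e-05. Hoxa6 was listed at 0 in all ESC samples and had 2.33, 2.11 and 2.33 RPKM in NPCs (limma, adjusted p = 2.36e-07). Hoxa7 reached only 0.57 ± 0.0842 RPKM in NPCs (SD, n = 3) against 0.113 ± 0.0383 RPKM in ESCs and was not tested.

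Paralog groups 9 to 13 act in the trunk, tail, limbs, skin and urogenital system, and their 16 members behaved differently from each other. Hoxb9, which acts in the rib cage and the mammary gland, had 1.44, 1.32 and 1.14 RPKM in the ESC samples and 10.8, 8.92 and 10.4 RPKM in the NPC samples. Hoxb13, a gene of the tail bud and the prostate, had 0.375, 0.35 and 0.571 RPKM in ESCs and 4.57, 3.96 and 3.38 RPKM in NPCs. Both were detected in all 6 samples and were higher in every NPC sample, with rises of 2.27 ± 0.1 (SE) for Hoxb9 and 1.79 ± 0.11 (SE) for Hoxb13 (limma, adjusted p = 2.64e-06 and 1.22e-05). They were the only 2 members of paralog groups 9 to 13 with a mean of at least 1 RPKM in NPCs.

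The HoxC genes of these groups went the other way. Hoxc13, required for hair and nails, had 1.4, 1.56 and 1.84 RPKM in ESCs and 0.0215, 0.00476 and 0.0161 RPKM in NPCs. Its ESC samples were all above 1 RPKM and its NPC samples all near 0, and its log2(RPKM + 1) value fell by 1.35 ± 0.064 (SE; limma, adjusted p = 3.49e-06). With its span as the length, these levels corresponded to 367, 405 and 437 reads in ESCs and to 5, 1 and 4 reads in NPCs. Hoxc13 was not tested when the filter was a mean of 1 RPKM over the 6 samples. Hoxc12, its neighbour, had 1.98, 2.27 and 0.631 RPKM in ESCs and 0.0358, 0 and 0 RPKM in NPCs. ESC replicate 3 was clearly below the other ESC samples, which left Hoxc12 under the filter, and still above all NPC samples. Without the filter Hoxc12 fell by 1.31 ± 0.27 (SE; limma, adjusted p = 0.00845), and ESC replicates 1 and 2 alone averaged 2.13 RPKM.

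Hoxc9, Hoxc10 and Hoxc11 were low in both cell types and are given in inferred reads. Hoxc10, which acts in motor neurons at hindlimb level, was read 23, 37 and 31 times in ESCs and 1, 0 and 0 times in NPCs, and Hoxc11 8, 15 and 11 times in ESCs and in no NPC sample. For Hoxc9, a gene of the thoracic spinal cord, there were 15, 12 and 11 reads in ESCs and 5, 6 and 1 reads in NPCs. In each of these 3 genes all NPC samples were below all ESC samples, although at so few reads the precision was limited by counting error, and none reached the filter. All 5 HoxC genes of paralog groups 9 to 13 were therefore lower in every NPC sample, whereas all 4 HoxC genes of groups 4 to 8 were higher.

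In HoxA and HoxD the genes at the 5′ end were at low levels in both cell types. Hoxa9, Hoxa10, Hoxa11 and Hoxa13 did not exceed 0.187 RPKM in any sample. Hoxa10, which acts in the uterus, was lower in all NPC samples, at 0.00343, 0.0038 and 0.00641 RPKM against 0.0274, 0.0461 and 0.0168 RPKM in ESCs, and Hoxa13, a gene of digits and urogenital tract, was higher, at 0.187, 0.127 and 0.0875 RPKM against 0.083, 0 and 0 RPKM. Hoxa9 and Hoxa11 overlapped between the cell types. Hoxd9 was higher in all NPC samples, with 0.989, 0.739 and 0.674 RPKM against 0.0829, 0.167 and 0.301 RPKM in ESCs, but did not reach the filter. Hoxd13, which shapes the digits, was lower, with 0.0605, 0.0781 and 0 RPKM against 0.286, 0.225 and 0.247 RPKM, and Hoxd11 was read 3, 3 and 2 times in ESCs and in no NPC sample. Hoxd10 overlapped between the groups with 1 or 2 reads per sample, and Hoxd12 was listed at 0 in all 6 samples.

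Counted by cluster, all 10 members of HoxB were called higher in NPCs, as were 5 of 10 in HoxA, 2 of 9 in HoxC and 3 of 9 in HoxD. In HoxB the values above 1 RPKM therefore reached from Hoxb1 to Hoxb13, while in HoxA they ended at Hoxa6, in HoxD at Hoxd8 and in HoxC at Hoxc6, on the scale of the tables. The level in NPCs fell with the paralog number with a Spearman's rho of -0.68 over the 38 members, given as a description because neighbouring genes are not independent. By cluster rho was -0.82 in HoxA (n = 10), -0.14 in HoxB (n = 10), -0.85 in HoxC (n = 9) and -0.73 in HoxD (n = 9). Between the 3 NPC samples the value for HoxB ranged from -0.26 to 0.0061, and that for HoxA from -0.82 to -0.78. All of these values come from the same 3 libraries.

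Levels of different genes depended on the length they were divided by. Among the NPC means on the span scale Hoxa5 came first at 87.5 ± 4.97 RPKM (SD, n = 3), followed by Hoxa4 at 50.5 ± 3.08, Hoxb4 at 38.1 ± 1.45 and Hoxb5 at 30.4 ± 0.588 RPKM, steps larger than the spread between samples. Hoxa2 and Hoxb1, in places 6 and 7, overlapped, as did Hoxc4 and Hoxb9, in places 8 and 9. An exon scale was chosen after seeing the data, in which each RPKM was multiplied by the ratio of gene span to RefSeq exon length. This scale takes all counted reads of a gene as reads of its exons, which was not tested. The length behind the deposited value was the one giving whole reads for 22 members and was taken as the RefSeq span for the other 16. On the exon scale Hoxa5 kept place 1 at 132 ± 7.5 RPKM, but Hoxc5 moved from place 11 to 2 at 97.8 ± 3.12 RPKM and Hoxc4 from 8 to 3 at 95.7 ± 9.87 RPKM, which overlap. Hoxa3, with long introns, moved from place 18 to 6 at 41.8 ± 5.41 RPKM. It overlapped there with Hoxb5, in place 7 at 41.8 ± 0.809 RPKM. With 2.15 ± 0.318 RPKM in NPCs, Hoxa7 was above 1 RPKM on this scale, where the values above 1 RPKM in HoxA thus did not end at Hoxa6. Hoxc4 averaged 3.81 RPKM in ESCs on the exon scale. Over the 38 members rho between paralog number and level was -0.73 on this scale. Hoxa3 spans 44275 bases at chr6:52169062-52213336 on the minus strand (GRCm38), a stretch that also holds Hoxa4, Hoxa5 and Hoxa6, and the length that gave whole reads for Hoxc5 was 49987 bases at chr15:102967443-103017429 on the plus strand, a stretch that holds Hoxc6, Hoxc8 and Hoxc9.

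**Figure D2:**
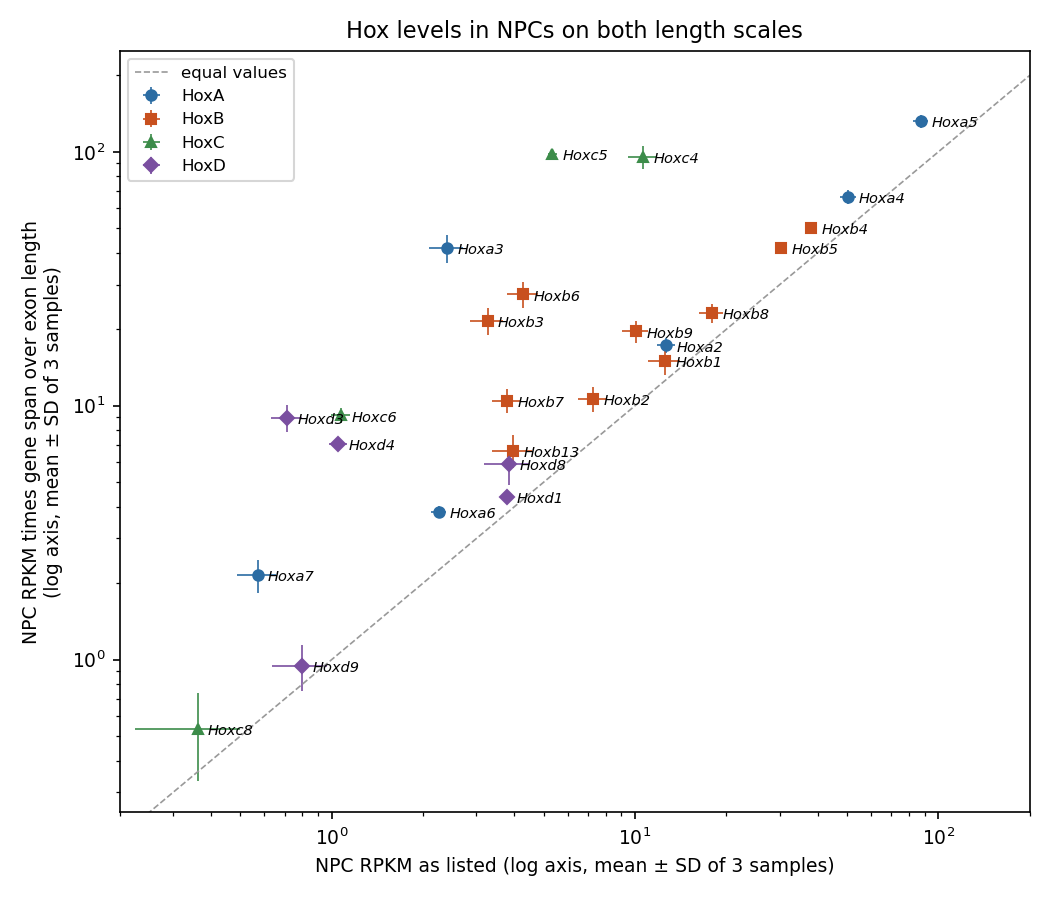
Mean NPC level of each Hox gene with at least 0.3 RPKM on the span scale of the tables (x axis, log scale, RPKM) and on the exon scale (y axis, log scale, RPKM times span over exon length). Points are means of 3 samples, bars are SD and the dashed line marks equal values; Hoxc5, Hoxa3 and Hoxd3 lie far above the line, since introns make up most of their spans.

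Exons of 15 members overlap exons of another gene in GENCODE, for 9 members a gene on the same strand and for 9 a gene on the opposite strand. Hoxd3 and Hoxd4 share exon sequence, as do Hoxc5 and Hoxc10, and Hoxa2 and Hoxa3 each share some with Gm28308. Reads there could have been given to either gene, and the kit is described as stranded in the methods and as another kit in the labels, so that values of Hoxd3, Hoxd4, Hoxa3 and Hoxc5 may hold reads of a neighbour and levels of these genes are uncertain. Besides the members, the tables held 3 genes annotated as protein-coding within the clusters, the only type searched for by position. Of these 5730596B20Rik, which lies opposite to Hoxa3 and passed the filter only through NPC samples, was listed at 0 in all ESC samples and had 8.88, 8.88 and 9.23 RPKM in NPCs, a rise of 3.32 ± 0.059 (SE; limma, adjusted p = 1.86e-07). Gm28230 in HoxD had 0.00139, 0 and 0 RPKM in ESCs and 0.197, 0.22 and 0.247 RPKM in NPCs and was not tested, and Gm28308 in HoxA was listed at 0 in all samples.

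Hox proteins bind DNA together with TALE homeodomain proteins of the Pbx, Meis and Prep families. Of 9 such genes 6 were tested, 5 were called higher in NPCs and none lower, also at an unadjusted p under 0.05 in limma, with a median change of 1.62 against 0.02 over all tested genes. Only through NPC samples had 5 of the 6 passed the filter, which fixed their direction as for the Hox genes, and with the filter on the mean 3 were called higher. The most abundant was Pbx2, with 8.78, 9.58 and 8.73 RPKM in ESCs and 42.5, 44.9 and 45.4 RPKM in NPCs, a rise of 2.17 ± 0.091 (SE). Meis3, which acts with Hox proteins in the hindbrain, rose from near 0, with 0.0849, 0.0831 and 0.0626 RPKM, to 4.32, 4.57 and 4.49 RPKM, a change of 2.34 ± 0.05 (SE) (limma, adjusted p = 1.86e-07).

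Regulators of Hox genes in the hindbrain and tail bud formed a list of 18 genes, of which 8 were tested, 5 called higher and 3 lower, directions again fixed by the filter, which 5 passed only through NPC samples and 3 only through ESC samples. Zfp703, a repressor, and its relative Zfp503 rose most, Zfp703 from 0.355, 0.33 and 0.251 RPKM to 34.4, 43.8 and 41 RPKM and Zfp503 from 0.026, 0.0315 and 0.0288 RPKM to 13.3, 16.2 and 15.7 RPKM. The largest falls were those of Nkx1-2, from 7.63, 7.9 and 6.38 RPKM to 0.195, 0.224 and 0.299 RPKM, and of Fgf17, from 2.68, 3.14 and 4.37 RPKM to 0.0219, 0 and 0.0255 RPKM. The Cdx genes, activators of the central Hox genes, were not tested and were all lower in NPCs, Cdx2 with 0.518, 0.679 and 0.839 RPKM in ESCs and 0.205, 0.255 and 0.268 RPKM in NPCs and Cdx4 listed at 0 in NPCs.

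Of 21 genes of retinoic acid signalling 15 were tested, 10 called higher and none lower, with a median change of 1.14. None was lower at an unadjusted p under 0.05 in limma either, but 9 of the 15 passed the filter only through NPC samples. With quantile normalization 6 were called higher, and without ESC replicate 3 the call of Nrip1 was lost. Cyp26b1 and Cyp26a1, the enzymes that degrade retinoic acid, rose most. Cyp26b1 had 0.0196, 0.0343 and 0.00722 RPKM in ESCs and 44.4, 42.4 and 41 RPKM in NPCs, and Cyp26a1 had 0.0237, 0.0159 and 0.0262 RPKM in ESCs and 18.5, 19.8 and 22 RPKM in NPCs. The ESC samples were near 0 and no group overlapped, and the rises were 5.42 ± 0.074 (SE) and 4.36 ± 0.085 (SE) (limma, adjusted p = 1.42e-07 and 1.86e-07).

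Genes of the Polycomb complexes, which keep Hox genes silent, were called in both directions. Of 31 genes 26 were tested, 5 called higher and 3 lower, which is 30.8% beside 28.7% of all tested genes, and the median change was 0.08. Called higher were 3 with quantile normalization and 8 with a pseudocount of 0.1 RPKM, and without ESC replicate 3 Suz12 was called lower as well. Among those called, the chromodomain protein Cbx2 had 4.56, 4.82 and 3.49 RPKM in ESCs and 17.3, 17.7 and 16.7 RPKM in NPCs and Cbx7 had 5.85, 6.18 and 3.46 RPKM in ESCs and 0.165, 0.165 and 0.164 RPKM in NPCs. Cbx2 was thus high in NPCs and Cbx7 high in ESCs, with a rise of 1.79 ± 0.12 (SE) for Cbx2 and a fall by 2.37 ± 0.18 (SE) for Cbx7. Of the 26 tested genes 5 passed the filter only through NPC samples and 1, Cbx7, only through ESC samples, which fixed their directions. Ring1, a ubiquitin ligase of these complexes, rose by 1.24 ± 0.13 (SE), while Eed, a subunit of the H3K27 methylase, fell by 1.56 ± 0.12 (SE). Of 17 Trithorax genes and H3K27 demethylases 15 were tested, 2 called higher (4 with pseudocounts of 0.1 and 0.5 RPKM, 1 with quantile normalization) and 3 lower, with a median change of 0.21. The demethylase Kdm6b rose by 1.75 ± 0.31 (SE), from 5.89, 6.31 and 2.27 RPKM to 15.5, 18.2 and 18.9 RPKM, and Setd1b rose by 1.05 ± 0.2 (SE), a call lost without ESC replicate 3 and with quantile normalization. Wdr5 and Dpy30, shared subunits of the H3K4 methylases, fell by 2.06 ± 0.11 and 1.69 ± 0.17 (SE).

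The identity of the samples was checked with marker lists. Of 10 ESC markers 9 were called lower in NPCs, and the list summed to 466, 479 and 562 RPKM in the ESC samples and to 9.57, 9.62 and 9 RPKM in the NPC samples. Pou5f1 had 130.0, 136 and 202 RPKM in ESCs and 0.0558, 0.0386 and 0.0651 RPKM in NPCs, and fell by 7.19 ± 0.18 (SE). Nanog fell by 6.56 ± 0.078 (SE) and Zfp42 fell by 5.37 ± 0.082 (SE), while Tbx3, the most abundant of the list in NPCs, was not called, with a change of -0.794, but was called lower, with -1.01, without ESC replicate 3. Of the 10 ESC markers 8 passed the filter only through ESC samples. Of 10 NPC markers 8 were tested, 6 of them passing only through NPC samples, and 7 called higher, and the list summed to 6.58, 6.03 and 5.57 RPKM in ESCs and 56.2, 63.9 and 64.3 RPKM in NPCs, with Nes the most abundant at 29.8, 32.7 and 29.4 RPKM in NPCs. Pax6 had 0.0134, 0.0167 and 0.00457 RPKM in ESCs and 1.55, 1.42 and 1.67 RPKM in NPCs and rose by 1.33 ± 0.043 (SE). With the filter on the mean Pax6 was not tested. Sox1 had 0.486, 0.491 and 0.343 RPKM in ESCs and 1.27, 1.12 and 1.81 RPKM in NPCs and was not called at this threshold.

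Hox genes are also active outside the neural tube, so lists for other cell types were read beside them. Of 13 mesoderm genes 5 were tested and all 5 called higher in NPCs, a direction fixed by the filter, which they passed only through NPC samples (3 with the filter on the mean), with sums of 1.54, 1.68 and 1.79 RPKM in ESCs and 31.5, 40.8 and 37.8 RPKM in NPCs. Most of this was Foxc2, with 21.4, 29.3 and 26.4 RPKM in NPCs, followed by Hand2 with 3.23, 3.66 and 3.91 RPKM, while T, which was not tested, went the other way, with 0.964, 1.04 and 0.869 RPKM in ESCs and 0.0164, 0.00909 and 0.0115 RPKM in NPCs, and Msgn1 was listed at 0 in all samples. Of 8 endoderm genes 5 were tested and all 5 called higher, again after passing the filter only through NPC samples (3 with the filter on the mean), with sums of 0.507, 0.455 and 0.448 RPKM in ESCs and 20.3, 20.5 and 19.3 RPKM in NPCs. Gata6 was the most abundant with 6.3, 6.93 and 6.82 RPKM in NPCs and Gata4 had 5.85, 5.83 and 6.02 RPKM, while Ttr had 0.153, 0.141 and 0.16 RPKM and Cer1 was listed at 0. These lists moved with the Hox genes, and their part in the result was not tested.

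Among 6 neural crest genes 3 were tested, 2 called higher and 1 lower, with sums of 8.47, 8.93 and 7.65 RPKM in ESCs and 6.78, 6.04 and 6.19 RPKM in NPCs; Snai2 was the most abundant in NPCs and Foxd3 in ESCs, and Sox10 stayed below 0.1 RPKM. Ets1 and Snai2 were the genes called higher and Foxd3 the gene called lower. Of these 3 genes the filter had fixed the direction, and 1 was called higher with the filter on the mean or with quantile normalization. Of 8 neuron genes 3 were tested, 1 called higher, Lhx1, and 1 lower, Stmn2. The filter had fixed both directions, as Lhx1 passed it only through NPC samples and Stmn2 only through ESC samples. The neuron list summed to 11.2, 12.3 and 14.5 RPKM in ESCs and 13.8, 12.3 and 14.6 RPKM in NPCs, with Lhx1 the most abundant in NPCs. The sums hid opposite differences. Tubb3 and Stmn2, the most abundant in ESCs, were lower in all NPC samples, and the other 6 genes were higher in all NPC samples, 5 of them untested, among them Dcx, listed at 0 in ESCs and with 1.05, 0.822 and 0.874 RPKM in NPCs, and Isl1 with 0.0283, 0.0494 and 0.037 RPKM in ESCs and 0.767, 0.662 and 0.776 RPKM in NPCs. In the hindbrain list Irx3 was called higher and Gbx2 and Fgf3 were called lower, the call of Gbx2 being lost without ESC replicate 3, without NPC replicate 1 and with median-of-ratios scaling. With the filter on the mean Fgf3 was not tested. Irx3 had passed the main filter only through NPC samples and Fgf3 only through ESC samples, which fixed their directions. The segment marker Egr2 was at 0.301, 0.191 and 0.189 RPKM in NPCs. Of 10 forebrain and midbrain genes 2 were tested, Lhx2 higher and Otx2 lower, neither of them tested with the filter on the mean. Lhx2 had passed the main filter only through NPC samples and Otx2 only through ESC samples, so that these directions were fixed too. The sums were 3.08, 3.02 and 2.23 RPKM in ESCs and 3.79, 3.59 and 3.13 RPKM in NPCs, with Lhx2 the most abundant in NPCs. The part of these lists in the Hox levels was not tested.

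The 5 nearest protein-coding genes with a value on each side of each cluster gave 40 flanking genes, of which 24 were tested, 2 called higher and 3 lower, which is 20.8% beside 28.7% of all tested genes, with a median change of -0.32. Next to HoxC, the DNA glycosylase gene Smug1 had 4.97, 4.97 and 3.41 RPKM in ESCs and 41.5, 39.1 and 39.6 RPKM in NPCs, and Calcoco1 on the other side had 2.25, 2.32 and 1.36 RPKM in ESCs and 8.78, 7.74 and 7.62 RPKM in NPCs. Both were higher in all NPC samples, with rises of 2.93 ± 0.14 (SE) and 1.62 ± 0.15 (SE). Next to HoxB, the autophagy receptor gene Calcoco2 had 8.55, 8.33 and 10.5 RPKM in ESCs and 0, 0.00581 and 0 RPKM in NPCs, and fell by 3.33 ± 0.095 (SE; limma, adjusted p = 4.03e-07). Calcoco2 passed the filter only through ESC samples, which fixed its direction. Atp5g1 and Snf8 beside it were called lower as well, but the call of Snf8, with 4.13, 4.29 and 7.51 RPKM in ESCs, was lost without ESC replicate 3, with a change of -0.918. None of the flanking genes of HoxA and HoxD was called.

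The NAD lists held 1769 regions in ESCs and 1447 in NPCs, called by the authors as regions common to both experiments, each with a score. Coordinates are those of mm10 (GRCm38) and the lists carry no value per experiment, so that positions are described without a test. All 9 HoxD genes lay in a NAD in both cell types, and none of the 29 genes of HoxA, HoxB and HoxC did in either. This makes 23.7% of the 38 members in each cell type, beside 26.9% of all 21632 positioned genes in NADs of ESCs and 21.4% in NADs of NPCs. The HoxD cluster, at chr2:74668310-74765142, was covered from end to end by the ESC NAD chr2:74400144-74900474 and by the NPC NAD chr2:74499226-74900474. The NADs ended at the same position, and the NPC NAD started 99.1 kb later, outside the cluster, in an analysis with a resolution of 100 kb. Each held the same 13 genes of the tables, the 9 HoxD genes with Evx2, Lnpk, Mtx2 and Gm28230. Their scores, 0.021 in ESCs and 0.0131 in NPCs, were in places 1278 of 1769 and 1444 of 1447 from the highest, below the median scores of 0.0256 and 0.0413. Hoxd1, Hoxd4 and Hoxd8 were called higher in NPCs within this NAD, and Mtx2, a mitochondrial import gene at 0.738, 0.688 and 1.09 RPKM in ESCs and 1.55, 1.57 and 1.54 RPKM in NPCs, was not.

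The nearest NADs of the other clusters were at a distance. From HoxA, at chr6:52162417-52260880, the next NAD was chr6:51899519-51999175 in ESCs, 163 kb away, and chr6:51899519-52000900 in NPCs, 162 kb away, both over Skap2. On the other side of HoxA, an ESC NAD at chr6:52500506-52800927 lay 239.6 kb away, whereas the next NPC NAD was 2540 kb away. HoxB, at chr11:96194316-96368256, was 395 kb from the ESC NAD chr11:95399998-95799753, whose score of 0.00241 was in place 1767 of 1769, and 832 kb from the NPC NAD chr11:97200426-97299978. On that side ESCs had a NAD at nearly the same place, chr11:97199787-97300286, with a score of 0.0824 in place 64 of 1769. HoxC, at chr15:102921103-103036852, was 163 kb from chr15:103200109-103499512 in ESCs and as far from chr15:103200109-103299693 in NPCs. The score of this ESC NAD was 0.0142, in place 1737 of 1769, and that of the NPC NAD was 0.044, in place 609 of 1447. On the other side of HoxC both cell types had the NAD chr15:102400420-102699595, at 222 kb. Next to HoxD, apart from the NADs over the cluster, the closest ended at position 73900442 in both cell types, 768 kb away.

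Within 1 Mb on each side of a cluster, NADs covered 19.1% around HoxA in ESCs and 4.83% in NPCs, and 23.0% and 4.58% around HoxB. In both cell types these shares were below those of the whole chromosomes, 25.7% in ESCs and 26.5% in NPCs for chromosome 6 and 30.1% and 21.4% for chromosome 11. Of the 500256 bases covered around HoxB in ESCs, 399756 lay in the NAD whose score was in place 1767 of 1769. Around HoxC the shares were 33.0% in both cell types, with 36.4% of chromosome 15 covered in ESCs and 22.1% in NPCs. For HoxD they were 34.9% in ESCs and 30.2% in NPCs, with 34.5% and 31.1% of chromosome 2. These comparisons changed with the window. With 500 kb on each side, the share around HoxA in ESCs was 32.8%, above that of chromosome 6, and the shares around HoxC were 51.8% in ESCs, above that of chromosome 15, and 33.9% in NPCs. With 500 kb the HoxD share in NPCs, 36.6%, was likewise above that of its chromosome. The lists differ in the number of regions and in covered length, 791.5 Mb in ESCs and 728 Mb in NPCs, and whether any of these shares differs between the cell types was not tested.

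**Figure D3:**
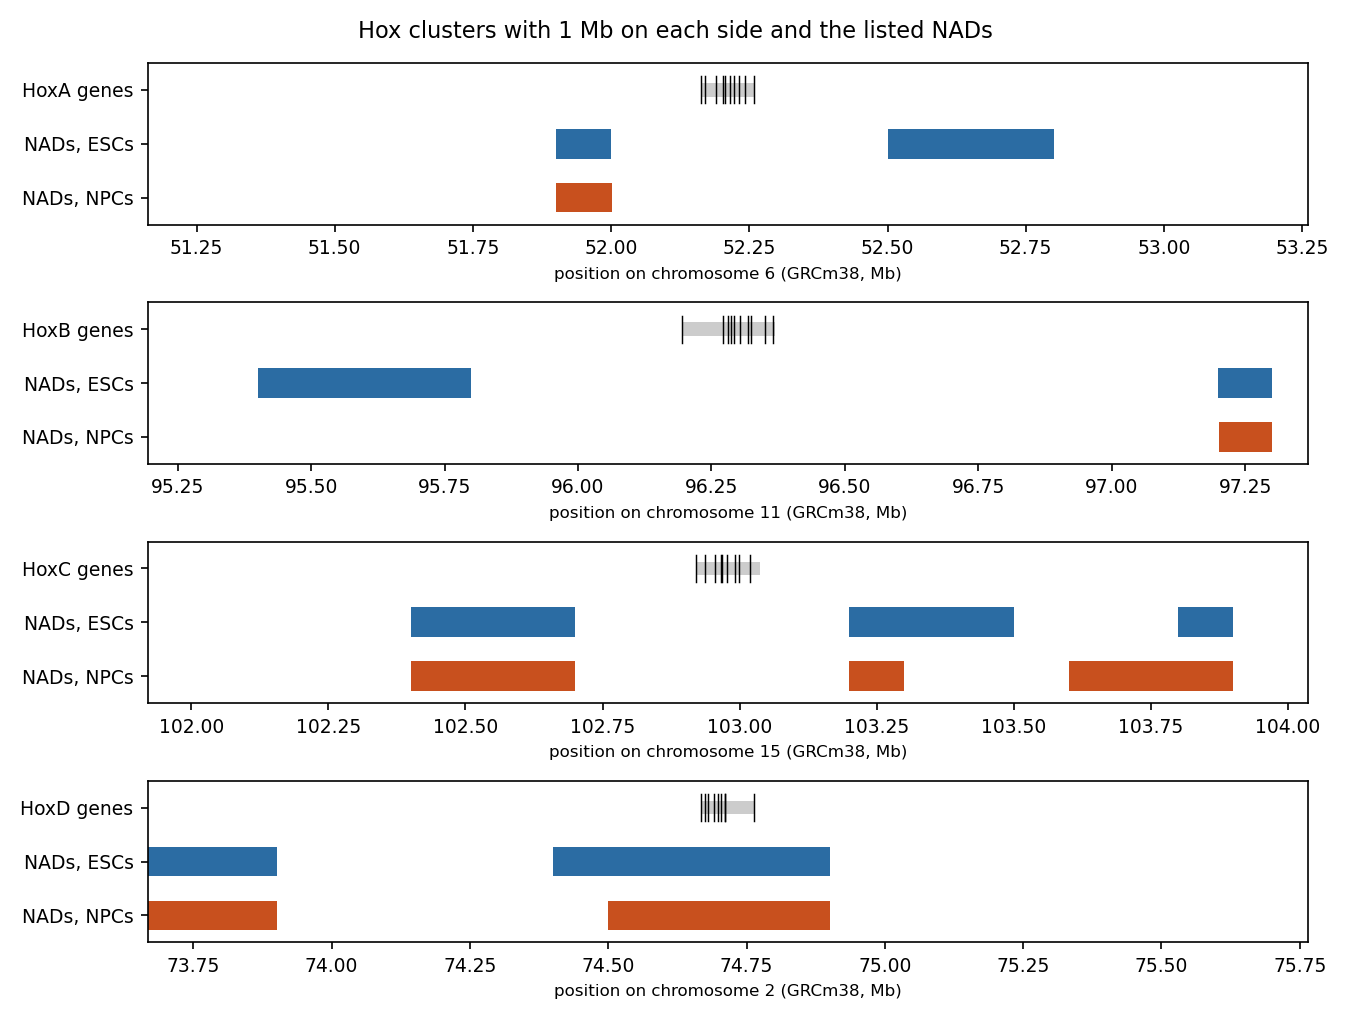
Each Hox cluster with 1 Mb on each side (x axis, position in Mb on GRCm38): member genes as black lines at their lowest coordinate on a grey bar, and the listed NADs of ESCs (blue) and of NPCs (orange). NADs lie over the whole HoxD cluster in both cell types and beside the other 3 clusters.

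Promoter sequences from RefSeq, 250 bases before to 50 bases after a gene start on GRCm38.p6, were matched by symbol for 22 of the 38 members, 24 sequences in all. They were searched on both strands for letters known to be bound by regulators of Hox genes, and the same was done in all 32851 promoters of the table. Direct repeats of AGGTCA, where each repeat could also read AGTTCA or else GGGTCA or else GGTTCA, with 5, 2 or 1 bases between them, as bound by retinoic acid receptors, were in none of the 24 sequences and in 0.0974%, 0.268% and 0.222% of all promoters. TTTATNG, bound by Cdx proteins, was in 2 Hox promoters (8.33%) against 10.9% of all. TGATNNAT, bound by Pbx with Hox proteins, was in 4 (16.7%) against 8.85%, and the homeodomain core TAATTA in 2 (8.33%), both of Hoxd11, against 5.29%. GAGAGAG was in 2 (8.33%) against 10.1%. The median Hox promoter had 14.5 CG pairs and 57.7% G and C, against 7 pairs and 52.7% over all promoters. A match describes the letters only, and nothing follows from it about binding.

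The promoters of 4 genes are shown, those of members called higher in NPCs whose windows hold a searched motif. Capitals mark matches to TTTATNG, TGATNNAT or GAGAGAG on either strand, and no match overlapped another in these 4 windows. The promoter of Hoxb8 (chr11:96281655-96281954, plus strand) held TTTATNG at 3 places and TGATNNAT at 1, and that of Hoxd4 (chr2:74721728-74722027, plus strand) held TTTATNG at 3 places and GAGAGAG at 1. In Hoxb1 (chr11:96365508-96365807, plus strand) and Hoxa2 (chr6:52164782-52165081, minus strand) TGATNNAT occurred at 1 place each. The sequences read from 5′ to 3′ on the strand of the gene.
Hoxb8: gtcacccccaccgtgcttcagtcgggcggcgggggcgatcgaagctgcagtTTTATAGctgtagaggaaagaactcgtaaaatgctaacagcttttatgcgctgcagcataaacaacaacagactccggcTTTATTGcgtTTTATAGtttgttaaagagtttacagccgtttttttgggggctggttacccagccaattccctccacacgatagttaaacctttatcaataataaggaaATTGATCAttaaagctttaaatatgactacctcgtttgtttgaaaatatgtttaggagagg
Hoxd4: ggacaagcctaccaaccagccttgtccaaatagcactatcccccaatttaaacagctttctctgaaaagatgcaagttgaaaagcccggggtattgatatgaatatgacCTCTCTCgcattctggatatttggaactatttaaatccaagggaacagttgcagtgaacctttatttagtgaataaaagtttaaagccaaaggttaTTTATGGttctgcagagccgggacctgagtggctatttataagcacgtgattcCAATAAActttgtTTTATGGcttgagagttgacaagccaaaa
Hoxb1: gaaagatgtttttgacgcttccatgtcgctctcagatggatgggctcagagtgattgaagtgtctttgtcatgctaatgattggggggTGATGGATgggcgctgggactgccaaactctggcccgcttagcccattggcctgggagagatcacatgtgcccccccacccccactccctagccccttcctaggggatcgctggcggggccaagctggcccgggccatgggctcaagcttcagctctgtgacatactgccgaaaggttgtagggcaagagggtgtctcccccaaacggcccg
Hoxa2: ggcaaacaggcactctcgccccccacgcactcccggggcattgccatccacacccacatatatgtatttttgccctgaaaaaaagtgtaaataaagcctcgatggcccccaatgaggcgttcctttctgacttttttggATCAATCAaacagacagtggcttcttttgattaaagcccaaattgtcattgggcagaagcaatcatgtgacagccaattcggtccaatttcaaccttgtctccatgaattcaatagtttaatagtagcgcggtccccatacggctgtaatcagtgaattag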

How the data were processed

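RNAseq of 3 ESC and 3 NPC samples and the NAD lists of both cell types were used, out of 24 samples in the series. The deposited RNAseq tables hold RPKM values, which the authors made after removal of rRNA reads with SortMeRNA, trimming with Trimmomatic and alignment to mm10 with STAR. The submitters' processing notes also name Bowtie2 2.3.4.3 and Subread 1.4.6-p4, without a role. In the methods of the authors Bowtie2 is the aligner of the DamID and ChIPseq reads. The deposited NAD lists hold a score per region, which the authors derived by dividing the nucleolar fusion signal by that of the control fusion (damidseq pipeline, find_peaks), keeping regions found in both experiments. Start positions of these lists count from 0 and are printed 1 higher. Samples were grouped by their labels. RPKM of the 153 symbols on more than 1 line, no Hox gene among them, were averaged per sample. Genes with at least 1 RPKM in at least 3 of the 6 samples were tested with the lmFit and eBayes (trend) functions of limma (version 3.58.1, R version 4.3.3) on log2(RPKM + 1), two-sided, with Benjamini-Hochberg adjustment over 7831 genes. A change on that scale understates the change of low genes. The limma step was tested on simulated data. Depth was inferred from the steps between low RPKM values, and reads given for single genes cover counting error only. Gene positions and exons came from GENCODE M21 and RefSeq (GRCm38.p6). Homeodomain sequences were not analysed here, and neither were the ChIPseq samples.

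By rule, values in each sample were given for the 15 members highest in NPCs, for members called lower and for members above 1 RPKM in an ESC sample, and in the other lists for the 2 called genes with the largest rise, the 2 with the largest fall, and Pou5f1, Nanog, Zfp42, Pax6, Nes and Sox1. Other genes were named after their values were seen. The members and lists were chosen with earlier results of these data known. Alternatives tried were another pseudocount, filter, scaling or threshold, no trend, the replicate number as a block, samples left out in turn, symbols on more than 1 line left out, other NAD scores, overlaps and windows. The exon scale and the count of expressed members without ESC replicate 3 were added after seeing the data. Some results, of Hox genes and of the other lists, are not reported here.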

Additional observations from a re-analysis of the deposited data

How the results depend on the processing

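The 21 members called with the main settings were also called with pseudocounts of 0.1 and 0.5 RPKM, without the trend, with symbols on more than 1 line left out, with adjusted p alone and with each sample left out in turn. A filter on the mean of the 6 samples gave 19 members, without Hoxc13 and Hoxd4 and with 0 lower in NPCs, since fewer genes were tested. Without a filter 22 were called, Hoxc12 being added, and 2 of them were lower. Quantile normalization gave 20 (without Hoxd4) and median-of-ratios scaling 22 (with Hoxc6); the cause was not tested. Over all genes the 2246 calls became 5498 with adjusted p alone, 2894 higher and 2604 lower, and 3208 and 2765 with pseudocounts of 0.1 and 0.5 RPKM. Leaving out 1 sample gave between 2043 and 2420 calls, the lowest without ESC replicate 3.

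With the replicate block, 21 members and 2248 genes were called. Deviations of equally numbered ESC and NPC samples from their group means correlated with 0.114, -0.0829 and 0.0321, so the numbers do not pair the samples, and only ESC replicate 1, NPC replicate 1 and NPC replicate 3 correlated best with their own number.

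Of 861 comparisons over 58 named genes and the alternatives, 854 kept their direction and side of the threshold, none was reversed, 5 lost a call (Gbx2 and Setd1b) and 2 gained one (Sox1, with the smaller pseudocounts). Genes no longer tested are not among these comparisons, namely Hoxc13, Ets1, Fgf3, Lhx2, Otx2, Pax6 and Sox1 with the filter on the mean and Ets1 and Sox1 with quantile normalization, so that all of these but Sox1 lost their call there. Among the other listed and flanking genes, the calls of Nrip1 and Snf8 were lost and those of Suz12 and Tbx3 gained without ESC replicate 3. Of 480 counts over the gene lists 25 moved by more than 1.5 times. With the filter on the mean these were 3 TALE genes higher in place of 5, 3 mesoderm and 3 endoderm genes in place of 5 each, 1 neural crest gene in place of 2, no forebrain gene in place of 1 in either direction, and 1 lower hindbrain gene in place of 2. Quantile normalization gave 6 higher retinoic acid genes in place of 10, 3 Polycomb genes in place of 5, 1 Trithorax gene and 1 neural crest gene in place of 2 each, 2 lower forebrain genes in place of 1 and 1 lower mesoderm gene in place of 0. A pseudocount of 0.1 RPKM gave 8 higher Polycomb genes, and both smaller pseudocounts 4 higher Trithorax genes. Median-of-ratios scaling and no filter each gave 2 higher forebrain genes. The other counts that moved followed from the calls of Gbx2 and Setd1b. The cause of these moves was not tested.

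With a limit of 0.1 RPKM, 11 members in place of 3 were expressed in ESCs. On the exon scale, chosen after seeing the data, rho over all members was -0.73 in place of -0.68. With only NADs at or above the median score of their list, 0 members lay in NADs of ESCs and 0 in NADs of NPCs, and the nearest NAD was 831.5 kb from HoxB and 221.5 kb from HoxC in ESCs and 767.9 kb from HoxD in ESCs and NPCs alike. Counting by transcription start or with NADs widened by 100 kb left 9 members in each cell type. With windows of 500 kb and 2 Mb on each side, coverage around HoxA was 32.8% and 10.7% in ESCs and 9.23% and 3.38% in NPCs, and around HoxB 8.98% and 16.8% in ESCs and 0% and 4.79% in NPCs. Around HoxC it was 51.8% and 22.4% in ESCs and 33.9% and 22.3% in NPCs, the larger window ending with the chromosome, and around HoxD 45.6% and 43.1% in ESCs and 36.6% and 26.9% in NPCs. These windows hold different stretches of the chromosome. Levels that correspond to a few reads, such as those of Hoxd10 and Hoxd11, are limited by depth.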

Other observations

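Evx genes lie beside the HoxA and HoxD clusters, and ParaHox genes such as Cdx2, Gsx1 and Pdx1 descend from the same ancestral cluster. Of 11 Evx, ParaHox and related genes 1 was tested, Gbx2, which had 3.35, 3.5 and 4.63 RPKM in ESCs and 1.18, 1.34 and 1.52 RPKM in NPCs and was called lower, a call lost without ESC replicate 3, without NPC replicate 1 and with median-of-ratios scaling. The list summed to 4.67, 5.08 and 6.74 RPKM in the ESC samples and to 2.76, 3.35 and 3.69 RPKM in the NPC samples. Mnx1, a gene of motor neurons, had 0.027, 0.0654 and 0.0538 RPKM in ESCs and 0.75, 0.715 and 0.712 RPKM in NPCs, and Gsx1, a gene of dorsal interneurons, had 0.0131, 0.0132 and 0 RPKM in ESCs and 0.221, 0.44 and 0.536 RPKM in NPCs. Both were higher in all NPC samples and stayed below the filter of 1 RPKM. Evx1 had 0.132, 0.164 and 0.12 RPKM in ESCs and 0.211, 0.338 and 0.336 RPKM in NPCs, while Evx2 was listed at 0 in all ESC samples and did not exceed 0.0377 RPKM in NPCs.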
